A study of Mus musculus with 47 samples.

Results

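The genes described here were the carriers of 7 solute carrier families that move amino acids across membranes: Slc1a, Slc3a, Slc6a, Slc7a, Slc36a, Slc38a and Slc43a. A gene was taken when its symbol was one of these family names followed by a number, and 47 of the 17078 genes in the deposited table met that rule. They were 5 of 7 annotated Slc1a genes, both Slc3a genes, 14 of 19 Slc6a genes, 10 of 15 Slc7a genes, 3 of 4 Slc36a genes, 10 of 11 Slc38a genes and all 3 Slc43a genes. The other 14 annotated members were not analysed here. The rule also takes carriers of other substrates: Slc6a2, Slc6a3 and Slc6a4 carry monoamines, Slc6a6 carries taurine, Slc6a8 creatine, Slc6a12 and Slc6a13 betaine and GABA, and Slc43a3 nucleobases.

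RNA was sequenced from luminal and basal cells sorted from the mammary glands of FVB/N mice at 8 points of the reproductive cycle. W10 mice were 10 weeks old and M4 mice 4 months old, and neither had been pregnant. P3.5 and P14.5 stand for days of pregnancy, L3 and L10 for days of lactation, Id2 for 2 days after the pups were taken away on day 10 of lactation, and Iw4 for 4 weeks after weaning. Each library was made from the glands of 4 pooled mice, sorted by lineage depletion and by Cd24 and Cd29 into luminal (Cd29 low) and basal (Cd29 high) cells. Mice of the pregnancy, lactation and involution points had been mated at 8 weeks of age. There were 24 luminal libraries, 3 at each point, and 22 basal libraries, 3 at each point except P14.5 and L10 with 2. Reads on genes ranged from 4398806 to 20023054 a library, with a median of 8518616. CPM stands here for the deposited normalised count, which is scaled by the edgeR effective library size. On that scale 3 reads were worth between 0.17 and 1.05 CPM. The highest worth was in luminal L3 replicate 6, which had 8295520 reads, so it did not follow depth alone. In bulk RNA of this kind, fewer cells of a type and less RNA per cell cannot be told apart. The W10 and Id2 libraries shared one amplification batch, L3 and L10 another, and P3.5 and P14.5 one of their own, so lactation against non-pregnant glands and Id2 against L10 cannot be told apart from batch. The libraries of M4 and Iw4 were spread over another 3 batches. Luminal and basal libraries with the same time point and replicate number were on the same lane and in the same batch. Within a batch the lanes differed between W10 and Id2, between P3.5 and P14.5 and between L3 and L10, so in these comparisons lane and time point cannot be told apart. Replicates 4 and 5 of L3 and L10 were sorted on shared dates, and every other sort had a date of its own.

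The labels were checked against markers. The summed level of 8 luminal markers (Krt8, Krt18, Krt19, Elf5, Cd24a, Epcam, Foxa1 and Kit) was 4335 to 9513 CPM in the 24 luminal libraries and 221 to 2450.1 CPM in the 22 basal ones, without overlap. The 3 basal libraries of Id2 stood apart. The summed level of 8 basal markers (Krt5, Krt14, Acta2, Myh11, Mylk, Oxtr, Trp63 and Snai2) was 1360, 17629 and 1100.2 CPM in Id2 replicates 2, 4 and 6, against 11773 to 73818 CPM in every other basal library. Replicate 2 held 11261 CPM of 8 endothelial markers, led by Cdh5, and replicate 6 held 72508 CPM of 9 fibroblast markers, led by Col1a1. Only replicate 4 was within the range of the other basal libraries, and the value with replicate 4 as the only basal Id2 library is therefore given where it changed a call.

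Cells take up most amino acids through these carriers, because free amino acids hardly cross a lipid bilayer. Some work alone, by exchange or driven by sodium or protons. Others are pairs in which a glycoprotein heavy chain, Slc3a2 (4F2hc, CD98) or Slc3a1 (rBAT), is disulfide-bonded to a light chain of the Slc7a family that does the transport. The lactating gland is known for its high demand, since the essential amino acids of milk protein must be drawn from blood across the basolateral face of the secretory luminal cells, while the surrounding basal (myoepithelial) cells contract to eject milk.

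Of the 47 members, 33 reached a mean of at least 5 CPM over the 46 libraries, 7 of them at least 100 CPM, and 22 had at least 3 reads in every library. All 47 stayed in the main fit, while the alternative fit with a filter on a mean of 5 CPM left out those below it. Levels can be set side by side between genes only per length, as CPM per kilobase of exon (CPM/kb). On that scale and averaged over the luminal libraries, Slc7a5, the light chain of the large neutral amino acid exchanger LAT1, led with 117.5 CPM/kb, which was 25.4% of the sum over the 47 members. Its heavy chain Slc3a2 followed with 110.5 CPM/kb. The sodium-coupled glutamine and alanine carrier Slc38a2 stood at 60.2 CPM/kb and the arginine and lysine carrier Slc7a2 at 38.1 CPM/kb. In basal cells Slc3a2 led with 95.6 CPM/kb or 19.97% of the sum, followed by Slc7a5 with 71.6 and by Slc38a2 and the taurine carrier Slc6a6 with 65.5 CPM/kb each. These ranks pool time points that differed. By group means, luminal Slc3a2 was above Slc7a5 at W10 (91.7 against 34.8 CPM/kb), M4 (49.4 against 33.0), Iw4 (63.7 against 33.8) and P3.5 (50.5 against 46.8). The mean of Slc7a5 was above that of Slc3a2 at P14.5, L3, L10 and Id2. In single luminal libraries Slc7a5 was 0.82 to 1.17 times Slc3a2 at P3.5, 0.99 to 2.00 times at L3 and 0.80 to 1.25 times at Id2. At these 3 time points the order therefore differed between libraries. Basal Slc7a5 had a mean of 222.8 CPM/kb at P3.5 and between 28.2 and 67.9 CPM/kb at the other time points.

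**Figure D1:**
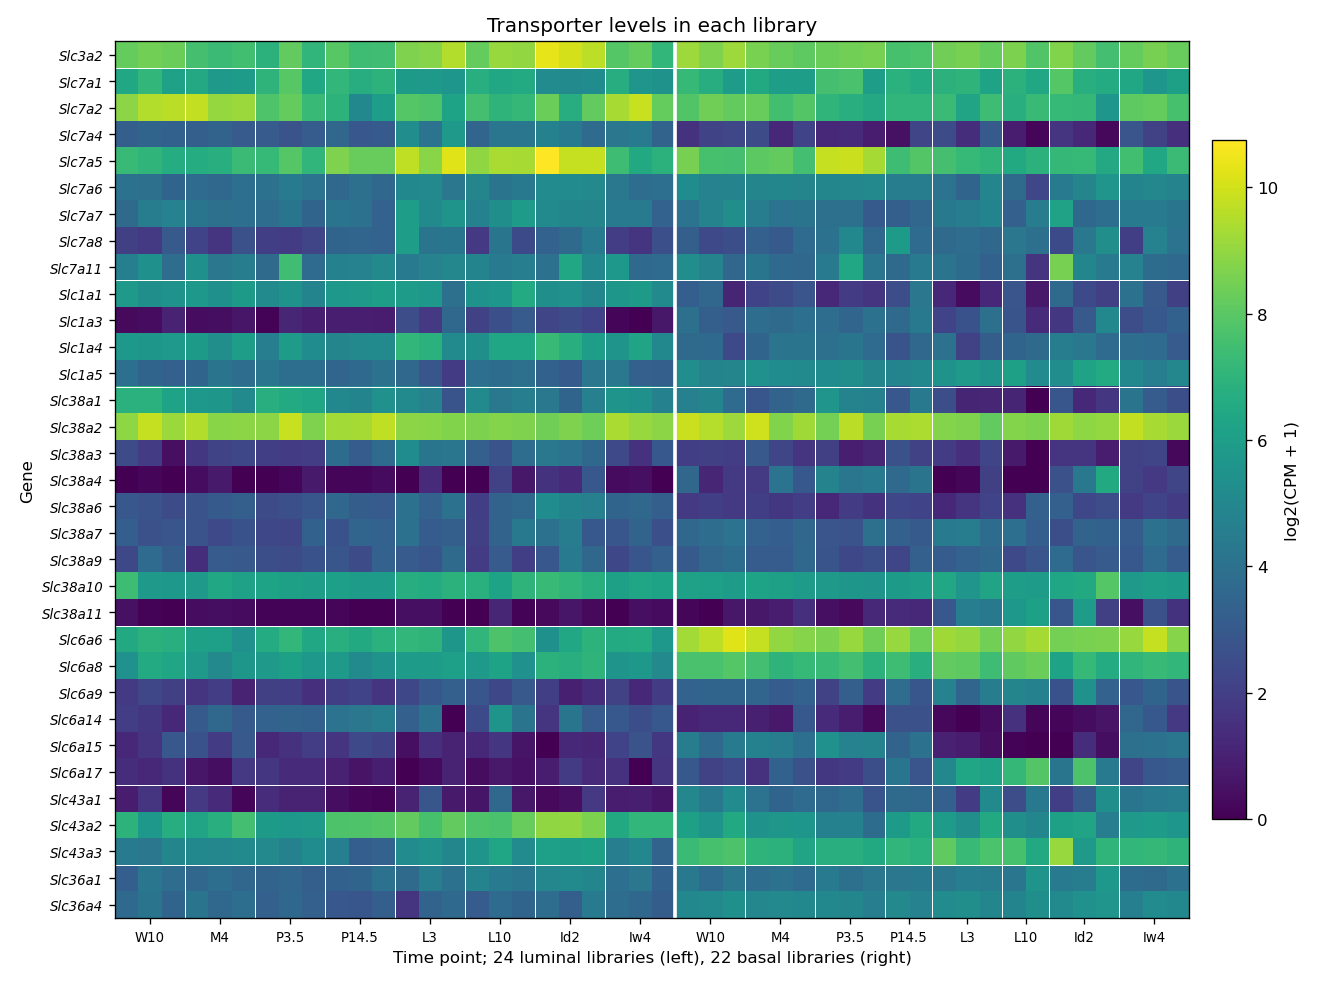
Levels of the 33 members with a mean of at least 5 CPM (rows) in the 46 libraries (columns, grouped by cell type and time point), as log2(CPM + 1) in colour. Slc7a5, Slc3a2 and Slc38a2 were high throughout, Slc6a6 was high in the basal columns, and Slc7a5 was brighter in the luminal columns of lactation and Id2.

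To ask what changed in lactation, L3 and L10 were averaged and set against the mean of the 3 non-pregnant conditions, W10, M4 and Iw4. A gene was called when limma's test on log2(CPM + 1), adjusted by Benjamini-Hochberg over all 17078 genes, gave a false discovery rate under 0.01 and a fold of at least 2. In luminal cells 12 of 47 members were called, 9 higher and 3 lower, where 13.1% of all genes were called, 7.45% higher and 5.66% lower. The members' median log2 fold change was 0.35, against -0.0057 over all genes. In basal cells 10 were called, 4 higher and 6 lower, beside 18.2% of all genes, 10.4% higher and 7.78% lower. Only Slc6a9 was called higher in both cell types, and Slc38a1 and Slc6a15 were called lower in both. The share of all genes called in both was not counted, so this overlap has no background beside it. The change itself differed between the cell types for 14 members, 11 of them with the lower value in basal cells, where 11.4% of all genes differed and 5.45% in that direction.

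**Figure D2:**
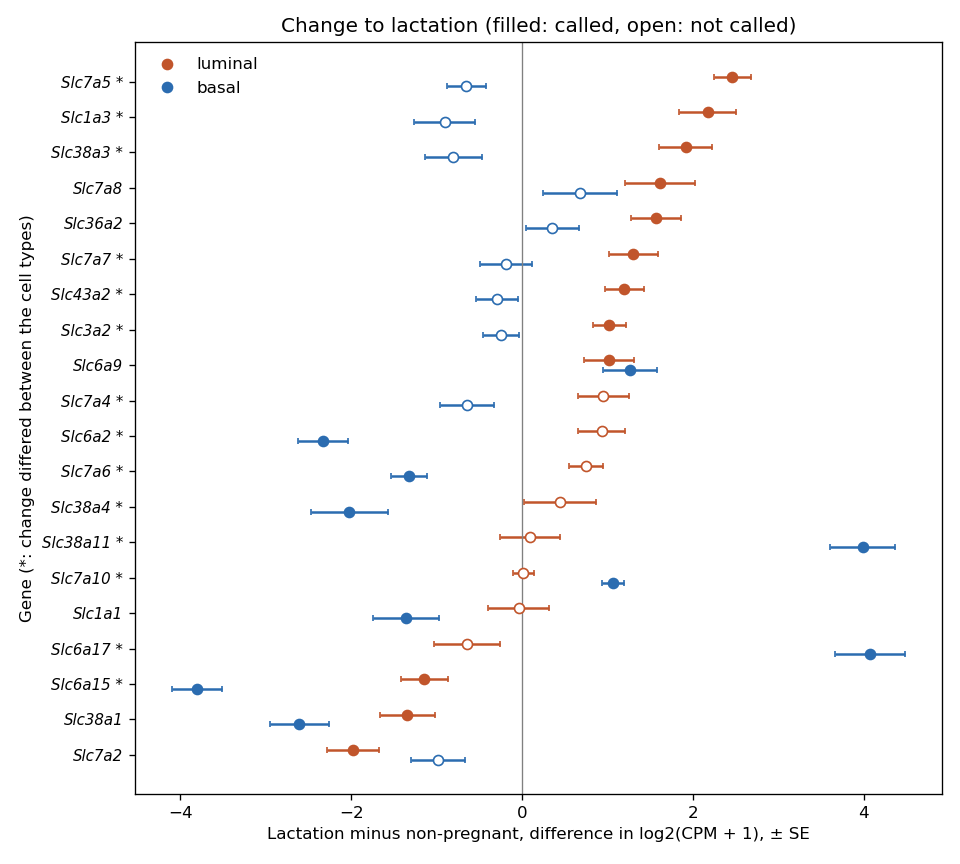
Change from the non-pregnant conditions to lactation for 20 members, as log2 fold change on the log2(CPM + 1) scale with its standard error, in luminal and basal cells, filled where called, and a star where the change differed between the cell types by the interaction test. Slc7a5, Slc1a3 and Slc38a3 lie to the right in luminal cells only, and Slc6a17 and Slc38a11 in basal cells only.

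Among the heavy and light chains, Slc3a2 and 3 of the 6 light chains in the table (Slc7a5, Slc7a8 and Slc7a7) rose in luminal cells in lactation and none fell. In basal cells 1 light chain rose (Slc7a10) and 1 fell (Slc7a6). Of all genes, 7.45% were called higher and 5.66% lower in luminal cells, and 10.4% and 7.78% in basal cells. Slc7a5 lies on chromosome 8 (GRCm38, 121881150 to 121907694, minus strand) and Slc3a2 on chromosome 19 (8706882 to 8723369, minus strand).

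Slc7a5 in luminal cells stood at 157, 131 and 99.4 CPM at W10, at 99.9, 109 and 158 at M4 and at 169, 90.1 and 117 at Iw4. It was at 145, 241 and 134 CPM at P3.5 and at 399.9, 305 and 304 CPM at P14.5. The lactating libraries gave 845, 458 and 1206 CPM at L3 and 496, 657 and 649 CPM at L10, and the Id2 libraries 1714, 889 and 887 CPM. Every luminal library of lactation and Id2 was above every non-pregnant one. The log2 fold change to lactation was 2.46 (SE 0.22, adjusted p = 5.58e-11, limma), and against W10 the Id2 libraries were higher by 3.11 (SE 0.33, adjusted p = 1.57e-08, limma). Markers of other cells were higher in these luminal libraries too. The mean endothelial sum was 247, 166 and 191 CPM at L3, L10 and Id2, against 34.7, 19.6 and 15.2 CPM at W10, M4 and Iw4. The mean sum of 3 adipocyte markers was 57.8, 35.6 and 78.3 CPM, against 6.45, 8.65 and 7.93 CPM. Their part in the luminal changes was not tested.

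In basal cells Slc7a5 took another course. Its values were 369.6, 196 and 189.5 CPM at W10, then 894, 953 and 632 CPM at P3.5, and 169 and 236 CPM at P14.5. In lactation it stood at 188, 147 and 128 CPM at L3 and at 90.2 and 119 CPM at L10, and at Id2 at 142, 148 and 88.9 CPM. All 3 basal P3.5 libraries were higher than every other basal library. The fall from P3.5 to P14.5 was -2.02 on the log2 scale (SE 0.37, adjusted p = 5.86e-04, limma), and it was lost without P14.5 replicate 3, at -1.78 with an adjusted p of 0.0307. Markers of other cells moved between the same basal libraries: the fibroblast sum was 457, 347 and 796 CPM at P3.5 and 12050 and 6029 CPM at P14.5, the mean endothelial sum 30.0 and 487 CPM, and the mean pericyte sum 98.9 and 1222 CPM. Their part in the basal changes within pregnancy was not tested. The lactation and non-pregnant ranges of Slc7a5 overlapped in basal cells. The difference between the cell types in the change to lactation was -3.11 (SE 0.32, adjusted p = 6.50e-09, limma), and in the change from P3.5 to P14.5 it was -3.01 (SE 0.50, adjusted p = 0.00107, limma), which without P14.5 basal replicate 3 was -2.77 with an adjusted p of 0.0220. Basal cells exceeded luminal cells at P3.5 by 2.27 (SE 0.33, adjusted p = 1.99e-06, limma), and luminal cells exceeded basal cells at L3, L10 and Id2, at Id2 with a log2 difference, basal minus luminal, of -3.16 (SE 0.33, adjusted p = 5.83e-09, limma).

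**Figure D3:**
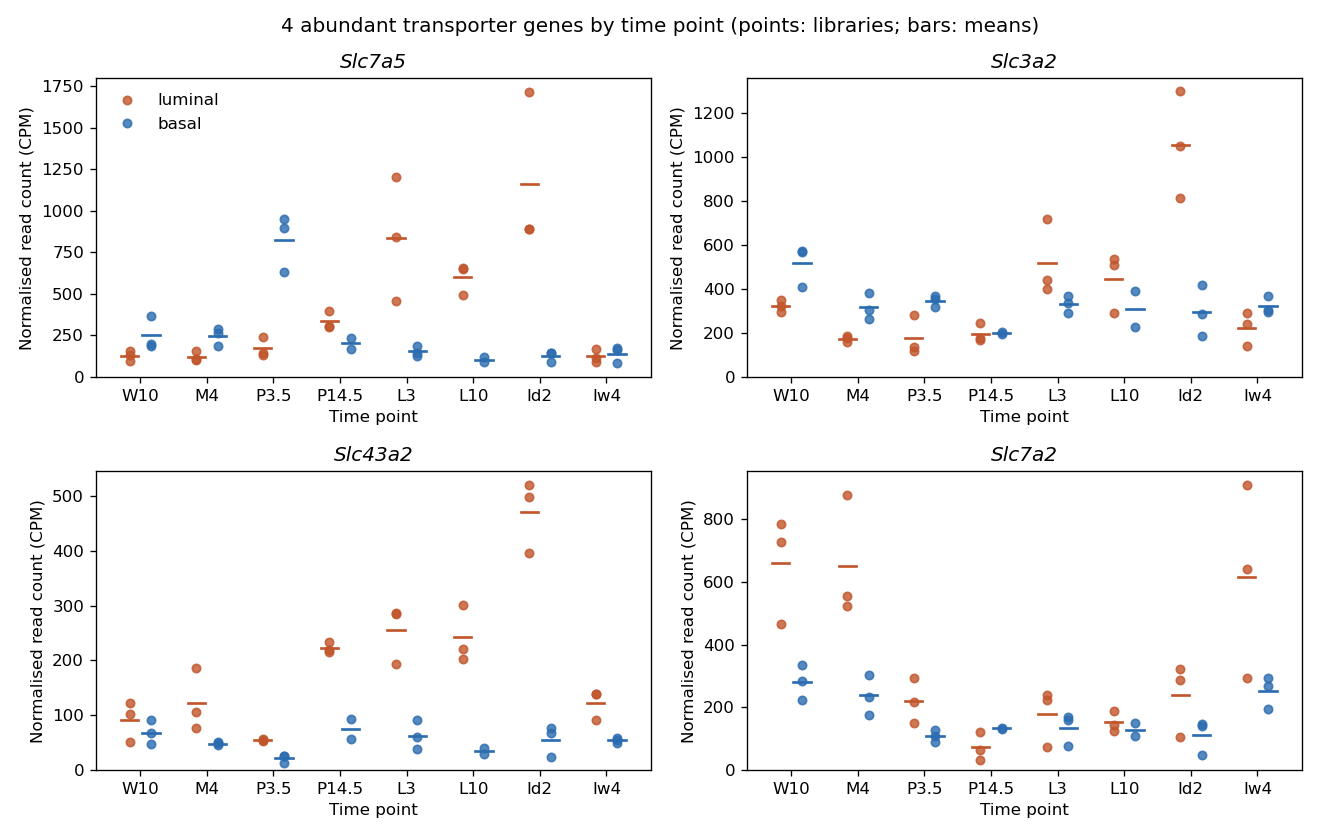
CPM of Slc7a5, Slc3a2, Slc43a2 and Slc7a2 in each library (points) at the 8 time points, luminal and basal, with group means. The luminal group means of Slc7a5, Slc3a2 and Slc43a2 are highest at Id2, basal Slc7a5 peaks at P3.5 between 632 and 953 CPM, and luminal Slc7a2 is highest in the non-pregnant libraries.

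Slc3a2, the heavy chain that carries Slc7a5 to the membrane, ranged in luminal cells from 139 over a median of 243 to 349.8 CPM in the 9 non-pregnant libraries. In the 6 lactating libraries it ranged from 293 over 475 to 719 CPM, and at Id2 it stood at 1301, 1051 and 814 CPM. The lactation and non-pregnant ranges overlapped, while all 3 Id2 libraries were above every other luminal library. The rise to lactation was 1.02 (SE 0.19, adjusted p = 7.63e-05, limma), so close to the fold of 2 that the call was lost without any of 6 single libraries (W10 replicate 3, L3 replicate 6, L10 replicates 5 and 6, Iw4 replicate 6 or M4 replicate 2, with log2 values of 0.89 to 1.00). It was also lost with W10 and M4 alone as the non-pregnant group (0.97) and under median-ratio rescaling (0.998). From L10 to Id2 it rose by 1.26 (SE 0.30, adjusted p = 0.00475, limma), and without L10 replicate 4 the value was 0.99 with an adjusted p of 0.0522. Leaving out Id2 replicate 2 or 4 gave adjusted p-values of 0.0300 and 0.0199. In basal cells Slc3a2 stood between 185 and 572 CPM throughout and was called in none of the comparisons over time.

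Set against each other per kilobase, the summed light chains were 0.51 ± 0.095 times Slc3a2 at W10 in luminal cells (SD, n = 3) and 0.87 ± 0.16 at M4. The ratio was 1.23 ± 0.18 at P3.5, 1.83 ± 0.12 at P14.5, 1.74 ± 0.59 at L3, 1.499 ± 0.27 at L10, 1.11 ± 0.21 at Id2 and 0.76 ± 0.30 at Iw4, and the M4 libraries (0.72 to 1.05) overlapped those of Id2 (0.89 to 1.31). In basal cells it was 0.59 ± 0.15 at W10, 0.90 ± 0.13 at M4, 0.61 ± 0.18 at Iw4, 2.46 ± 0.62 at P3.5, 0.60 ± 0.095 at L3 and 0.79 ± 0.11 at Id2, each with n = 3. With n = 2 it was 1.24 ± 0.081 at P14.5 and 0.50 ± 0.26 at L10. Slc7a5 made up 92.6% ± 2.8 of the light-chain sum at Id2 in luminal cells and 41.4, 72.0 and 50.4% in basal Id2 replicates 2, 4 and 6. The ratio describes RNA levels, and protein was not measured.

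Slc7a8, the light chain of the exchanger LAT2, stood in luminal cells at 2.05, 3.12 and 6.97 CPM (lowest, median and highest) in the non-pregnant libraries. It was at 63.1, 16.7 and 16.8 CPM at L3 and at 2.39, 17.3 and 4.32 CPM at L10. The ranges overlapped, since 2 of the L10 libraries lay within the non-pregnant range. The rise of 1.61 (SE 0.41, adjusted p = 0.00193, limma) was lost without L3 replicate 4 (1.31, adjusted p = 0.0150) or L10 replicate 5 (1.26, adjusted p = 0.0164). Slc7a7, the light chain of the y+LAT1 exchanger of cationic and neutral amino acids, ranged from 9.45 over 17.2 to 26.0 CPM in the non-pregnant libraries and from 25.7 over 43.0 to 62.4 CPM in lactation, with ranges that met at one library. It rose by 1.30 (SE 0.28, adjusted p = 3.97e-04, limma). About 7.0% of its exon bases are shared with Oxa1l, and the reads of the overlap cannot be assigned.

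Slc7a6, the light chain of y+LAT2, fell in basal cells, where Slc7a7 was not called. It ranged from 26.1 over 28.5 to 36.8 CPM in the non-pregnant basal libraries and stood at 15.96, 10.0 and 28.9 CPM at L3 and at 12.3 and 3.89 CPM at L10. Only L3 replicate 6 lay within the non-pregnant range. The fall was -1.32 (SE 0.21, adjusted p = 4.75e-06, limma), and without L10 replicate 6 it was -0.96, under the fold of 2. At Id2 the basal libraries gave 21.1, 28.6 and 47.2 CPM, higher than at L10 by 1.97 (SE 0.34, adjusted p = 5.94e-05, limma), or by 1.25 with an adjusted p of 0.0329 without L10 replicate 6. In luminal cells Slc7a6 went from 15.2, 14.4 and 9.96 CPM at W10 to 35.2, 34.997 and 32.3 CPM at Id2, a rise of 1.33 (SE 0.31, adjusted p = 0.00172, limma) that was lost without W10 replicate 6 (1.15, adjusted p = 0.0166).

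Slc7a10 (Asc-1), a light chain for small neutral amino acids, was called higher in basal cells in lactation by 1.07 (SE 0.13, adjusted p = 2.40e-08, limma) at a level of at most 2.18 CPM, and the call was lost without L3 replicate 4 (0.94) or 6 (1.00). Of its exon bases 17.9% are shared with Lrp3. Slc7a11, the light chain of the cystine-glutamate exchanger xCT, was called in no comparison over time. Its change to lactation was 0.12 (SE 0.53, adjusted p = 0.892, limma) in luminal and -0.85 (SE 0.57, adjusted p = 0.238, limma) in basal cells. Single libraries stood out instead: luminal P3.5 gave 12.1, 171 and 12.5 CPM, and basal Id2 gave 377, 29.5 and 20.4 CPM. The basal library at 377 CPM was replicate 2, the one that held 11261 CPM of endothelial markers, whose part in the value was not tested.

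Several of these carriers are textbook targets of the transcription factor Atf4, which is made when amino acids run short and binds sites with the letters TGATGNAA. The 300-base windows from 250 bases before to 50 after the RefSeq starts (GRCm38.p6) were searched for these letters on both strands, in 51 windows of the 33 members that had one. Slc7a5 was among the 14 members without a window and was not searched. A match was found for 4 members (Slc7a11, Slc1a4, Slc7a7 and Slc6a21), where 3.97% of 32851 windows and 4.51% of 27025 symbols held one. Stretches of 3 of them are printed below to show where the matches lie, ending just before the start for Slc7a11 and running 4 bases past it for Slc1a4 and 7 for Slc7a7, with the heavy chain Slc3a2, which had none in its window, beside them. The RefSeq start of Slc3a2 lies inside the annotated span of the gene given above, and the outermost start of that span was not searched. The Slc7a7 stretch is around the outer of 2 RefSeq starts, which lies beyond the annotated end of the gene at 54417780, and from the other start the same TGATGCAA began 243 bases before it. Capitals mark the match on the printed strand or, as TTGCATCA, on the other strand. All 4 genes are on the minus strand, and the printed stretches lie at chr3:50443614-50443733, chr11:20332710-20332833, chr14:54417938-54418090 and chr19:8713898-8714017, in the order printed.
Slc7a11: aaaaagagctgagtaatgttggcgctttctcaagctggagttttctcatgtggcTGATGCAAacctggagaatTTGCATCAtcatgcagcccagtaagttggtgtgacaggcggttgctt
Slc1a4: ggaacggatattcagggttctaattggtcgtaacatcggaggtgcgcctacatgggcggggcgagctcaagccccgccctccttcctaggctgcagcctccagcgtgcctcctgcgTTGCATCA
Slc7a7: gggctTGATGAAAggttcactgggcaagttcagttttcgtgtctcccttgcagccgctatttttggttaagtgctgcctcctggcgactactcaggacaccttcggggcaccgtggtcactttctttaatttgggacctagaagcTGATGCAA
Slc3a2: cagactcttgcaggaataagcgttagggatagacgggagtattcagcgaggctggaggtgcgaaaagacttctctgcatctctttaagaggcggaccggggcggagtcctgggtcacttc
In Slc7a11 the matches began 66 and 47 bases before the start and faced each other, in Slc7a7 they began 141 bases and 1 base before the outer start, and in Slc1a4 the match began 4 bases before the start, so the last match of Slc7a7 and that of Slc1a4 run across the start. A match is a string of letters, and binding was not measured.

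Slc7a1, Slc7a2, Slc7a3 and Slc7a4 were grouped as cationic transporters, though the substrate of Slc7a4 is not settled. Of these 4, Slc7a2, which carries arginine and lysine, was lower in luminal cells in lactation and the other 3 were not called. Of all genes, 5.66% were called lower and 7.45% higher there. Slc7a2 ranged from 293 over 641 to 908 CPM in the non-pregnant luminal libraries and from 74.7 over 166 to 238 CPM in lactation. The ranges did not overlap. It fell by 1.98 on the log2 scale (SE 0.30, adjusted p = 2.36e-06, limma). Luminal libraries were already lower in pregnancy, at 217, 293 and 151 CPM at P3.5 and 123, 31.6 and 63.7 CPM at P14.5. In basal cells its ranges did not overlap either, with 177, 269 and 336 CPM (lowest, median and highest) in the non-pregnant libraries against 159.7, 75.9, 169.5, 108 and 149 CPM in lactation, but the change of -0.98 (SE 0.32, adjusted p = 0.0132, limma) missed both thresholds.

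Slc7a1, the widely expressed cationic carrier, was not called in lactation, with log2 changes of -0.00 (SE 0.25, adjusted p = 1, limma) in luminal and 0.42 (SE 0.27, adjusted p = 0.216, limma) in basal cells. At Id2 its luminal values of 35.4, 34.1 and 36.6 CPM lay below the 82.6, 139.5 and 70.7 CPM of W10. The difference of -1.38 (SE 0.38, adjusted p = 0.00880, limma) was lost without W10 replicate 3 or 5 or any one of the 3 Id2 libraries, with adjusted p-values of 0.0167 to 0.0766. For Slc7a4, whose substrate is not settled, the change to lactation differed between the cell types by -1.59 (SE 0.43, adjusted p = 0.00665, limma), a call that held under 26 of 39 alternatives, and 13.3% of its exon bases are shared with P2rx6.

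In the Slc38a family of sodium-coupled neutral amino acid carriers, 1 of 10 members rose and 1 fell in luminal cells, and 1 rose and 2 fell in basal cells, beside 7.45% of all genes called higher and 5.66% lower in luminal and 10.4% and 7.78% in basal cells. Slc38a3 (SNAT3), a glutamine and histidine carrier, ranged from 0.373 over 3.62 to 6.77 CPM in the non-pregnant luminal libraries. It stood at 12.9, 7.76 and 12.5 CPM at P14.5, at 36.1, 16.8 and 17.5 CPM at L3, at 8.78, 5.65 and 13.4 CPM at L10 and at 18.6, 16.3 and 11.0 CPM at Id2. Only L10 replicate 5 fell within the non-pregnant range. The rise to lactation was 1.91 (SE 0.31, adjusted p = 6.86e-06, limma). In basal cells it stayed at or under 7.12 CPM, and the difference between the cell types in this change was -2.72 (SE 0.45, adjusted p = 2.60e-05, limma). The mean endothelial sum in luminal libraries was 117 CPM at P14.5 and 247, 166 and 191 CPM at L3, L10 and Id2. At W10, M4 and Iw4 it was 34.7, 19.6 and 15.2 CPM, and its part in the values of Slc38a3 was not tested.

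Slc38a1 (SNAT1), another glutamine carrier, was lower in lactation in both cell types. In luminal cells it ranged from 25.0 over 50.02 to 115 CPM in the non-pregnant libraries and stood at 34.3, 25.8 and 5.96 CPM at L3 and 33.5, 18.7 and 23.5 CPM at L10, with overlapping ranges. The change of -1.34 (SE 0.32, adjusted p = 0.00117, limma) was lost without L3 replicate 6 (-0.99, adjusted p = 0.0122). In basal cells it ranged from 5.07 over 12.0 to 28.4 CPM in the non-pregnant libraries against 5.05, 1.14, 1.21, 1.14 and 0 CPM in lactation, without overlap, and fell by 2.61 (SE 0.35, adjusted p = 1.62e-07, limma). The W10 libraries were the highest non-pregnant ones in luminal cells, at 115, 115 and 74.7 CPM against 25.0 to 52.6 CPM at M4 and Iw4. Slc38a2, the most abundant member of the family, ranged from 453 over 537 to 890.2 CPM in the non-pregnant luminal libraries and from 398 over 423 to 475 CPM in lactation. It was called in neither cell type: its change was -0.41 (SE 0.20, adjusted p = 0.103, limma) in luminal and -0.81 (SE 0.21, adjusted p = 0.00209, limma) in basal cells, under the fold of 2.

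Slc38a4 (SNAT4), known from liver and placenta, was mostly a basal transcript before lactation. Its basal values were 26.7, 17.7 and 20.4 CPM at P3.5 and 11.6 and 16.8 CPM at P14.5. They fell to 0, 0.127 and 3.15 CPM at L3 and to 0 in both L10 libraries, against 1.23, 3.39 and 16.1 CPM (lowest, median and highest) in the non-pregnant libraries, where the ranges overlapped through L3 replicate 6. The change to lactation was -2.02 (SE 0.45, adjusted p = 4.46e-04, limma). At Id2 the libraries gave 5.31, 18.8 and 90.2 CPM, at least 139-fold higher on average than the 3 reads a library that 0 counts at L10 allow, at least 44.1-fold without replicate 6 and at least 68.7-fold in replicate 4 alone. The highest, 90.2 CPM, was in replicate 6, which held 72508 CPM of fibroblast markers, and replicate 4 stood at 18.8 CPM, so the order held without the other 2 libraries.

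Slc6a17 (NTT4), a vesicular carrier of neutral amino acids known from neurons, and Slc38a11, a little studied member of the SNAT family, rose in basal cells only. Slc6a17 ranged from 1.93 over 5.33 to 9.01 CPM in the non-pregnant basal libraries and stood at 31.0, 79.2 and 69.9 CPM at L3 and at 140.4 and 232 CPM at L10. The ranges did not overlap, and the rise was 4.07 (SE 0.41, adjusted p = 5.42e-10, limma). Slc38a11 ranged from 0 over 0.61 to 5.38 CPM in the non-pregnant libraries and stood at 6.66, 23.3 and 19.6 CPM at L3 and at 52.1 and 67.5 CPM at L10, again without overlap, a rise of 3.98 (SE 0.38, adjusted p = 1.38e-10, limma). In luminal cells neither passed 2.81 CPM in any library. The change to lactation differed between the cell types by 4.72 (SE 0.56, adjusted p = 1.26e-07, limma) for Slc6a17 and by 3.89 (SE 0.52, adjusted p = 7.99e-07, limma) for Slc38a11.

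The summed level of 6 pericyte markers, of which Rgs5 was the most abundant, moved with both genes in the basal libraries. It was 1845.1, 4209 and 7304 CPM at L3 and 9004 and 15911 CPM at L10, 1266 and 1178 CPM at P14.5, and at most 373 CPM in every basal library of W10, M4, P3.5 and Iw4. None of the 6 pericyte markers was at 0 in any lactating basal library. Within L3, replicate 4 had the lowest value of Slc6a17, of Slc38a11 and of the pericyte sum, while replicate 5 was highest for both genes and replicate 6 for the pericyte sum. L10 replicate 6 had the highest of all 3. Other sums were higher in lactation too: the mean of 8 endothelial markers was 863 CPM at L3 and 858 CPM at L10 against at most 152 CPM in any basal library of W10, M4, P3.5 and Iw4, and that of the 3 measured adipocyte markers, led by Fabp4, was 633 and 754 CPM against at most 105 CPM. The mean fibroblast sum was 2623 CPM at L3 (769.5 to 5838 CPM) and 1444 CPM at L10. It was 323, 487, 533 and 1078 CPM at W10, M4, P3.5 and Iw4, with an Iw4 library at 2072 CPM. At Id2, Slc6a17 stood at 16.9, 213 and 20.52 CPM, Slc38a11 at 6.25, 58.8 and 3.07 CPM and the pericyte sum at 3197, 10767 and 2089.8 CPM, so within Id2 replicate 4 was highest in all 3. The part of pericytes, endothelial cells, adipocytes and fibroblasts in these values was not tested. Nor was it tested in the other basal calls of lactation such as Slc7a10 and Slc6a9. Per the study's methods, the lineage depletion of the sort included antibodies to Cd31 (Pecam1, one of the endothelial markers) and Cd140a. The basal marker sum, 38746 to 73818 CPM in the 5 lactating libraries, was the highest of the series there.

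**Figure D4:**
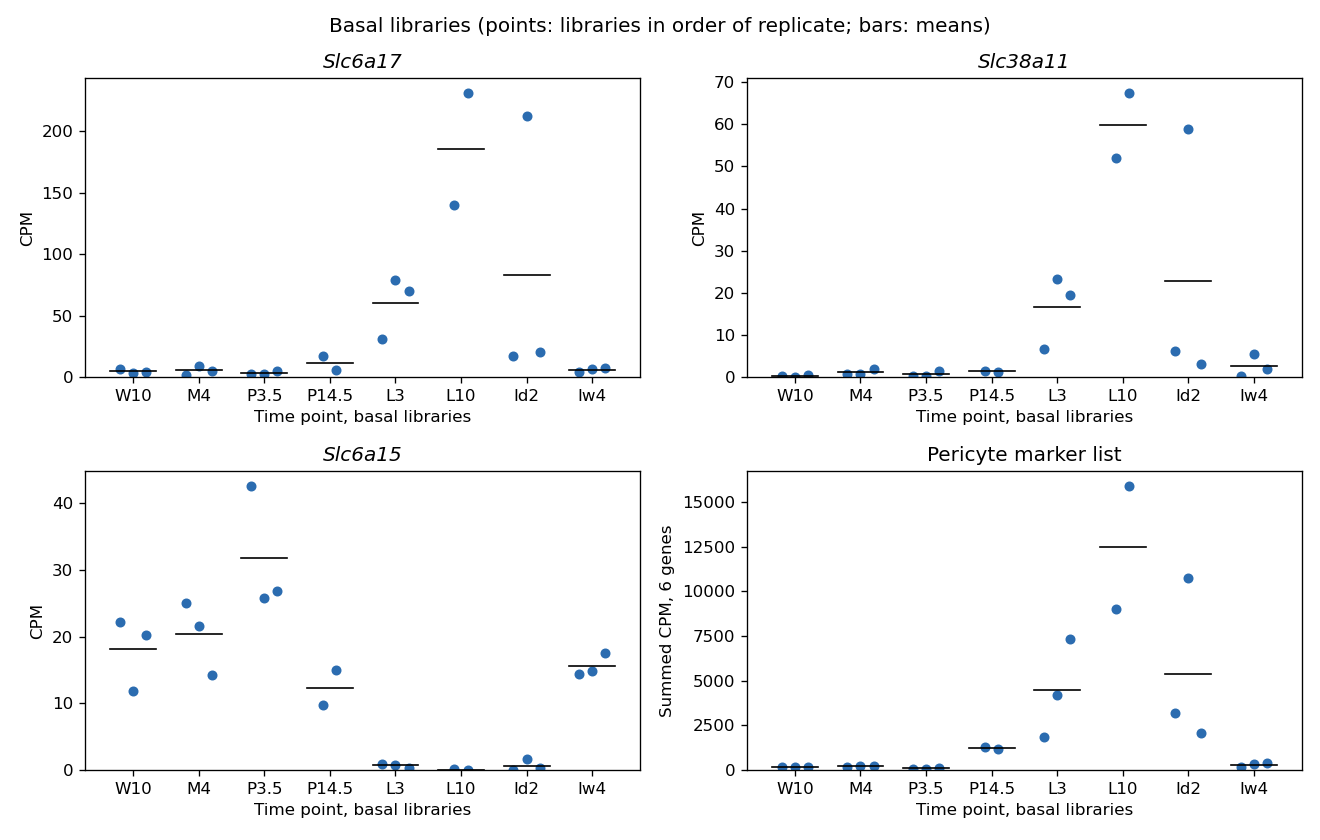
Slc6a17, Slc38a11, Slc6a15 and the summed pericyte markers in each basal library (points, CPM) at the 8 time points. Slc6a17, Slc38a11 and the pericyte sum have higher means at L10 than at L3 and are highest in replicate 4 within Id2, and Slc6a15 is under 1 CPM in all 5 lactating libraries.

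Among the other Slc6a genes, Slc6a15 (B0AT2), a carrier of branched-chain amino acids and proline, fell in both cell types. In basal cells it ranged from 11.8 over 17.5 to 25.1 CPM in the non-pregnant libraries, stood at 42.6, 25.9 and 26.8 CPM at P3.5 and at 9.71 and 15.0 CPM at P14.5, and was at 0.962, 0.761 and 0.371 CPM at L3 and 0.0873 and 0 CPM at L10. The ranges did not overlap. It fell by 3.81 (SE 0.29, adjusted p = 1.27e-12, limma), and at Id2 it stood at 0, 1.65 and 0.323 CPM. In luminal cells it went from 1.31, 3.48 and 7.01 CPM (lowest, median and highest) to 0.361, 1.19 and 2.25 CPM, a change of -1.14 (SE 0.27, adjusted p = 0.00108, limma) that was under the fold of 2 without W10 replicate 6 (-0.98). The difference between the cell types in this change was -2.66 (SE 0.40, adjusted p = 5.72e-06, limma).

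Slc6a9 (GlyT1), the glycine carrier, was the only member called higher in lactation in both cell types, by 1.02 (SE 0.29, adjusted p = 0.00613, limma) in luminal and by 1.26 (SE 0.31, adjusted p = 0.00140, limma) in basal cells. Its basal values were 25.8, 10.4 and 22.5 CPM at L3 and 28.5 and 25.5 CPM at L10, above the non-pregnant 5.88, 9.46 and 10.3 CPM (lowest, median and highest). The luminal values, from 3.97 to 8.77 CPM in lactation against 1.05 to 3.85 CPM, did not overlap either, but the luminal call held under only 17 of 25 alternatives. Of its exon bases 27.8% are shared with Ccdc24. Slc6a14 (ATB0,+), which takes up neutral and cationic amino acids, was not called, at 0.67 (SE 0.45, adjusted p = 0.253, limma) in luminal and -1.31 (SE 0.48, adjusted p = 0.0268, limma) in basal cells. Its change differed between the cell types by -1.98 (SE 0.65, adjusted p = 0.0260, limma), which was not called. With the sort as a block the difference was called (adjusted p = 0.00991, limma). Luminal Slc6a14 spread widely in lactation, at 8.84, 15.0 and 0 CPM at L3 and 4.39, 46.4 and 16.7 CPM at L10. Slc6a2, the noradrenaline carrier, was called lower in basal cells, from 6.14 to 24.7 CPM in the non-pregnant libraries to between 0 and 3.90 CPM in lactation, by -2.33 (SE 0.29, adjusted p = 6.18e-08, limma).

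Slc43a2 (LAT4), a facilitated carrier of branched-chain amino acids and phenylalanine, rose within pregnancy. In luminal cells it stood at 57.2, 52.5 and 55.1 CPM at P3.5 and at 214, 218 and 233 CPM at P14.5, a rise of 1.99 (SE 0.35, adjusted p = 5.39e-04, limma), the only member called between these days in luminal cells, where 1.52% of all genes were called. It then stood at 286, 193 and 284 CPM at L3, at 221, 203 and 301 CPM at L10 and at 499, 519 and 396 CPM at Id2. The lactating libraries did not overlap the non-pregnant range of 51.4, 106 and 186 CPM (lowest, median and highest), and the rise to lactation was 1.20 (SE 0.23, adjusted p = 8.04e-05, limma). In basal cells the level was lower, at 25.5, 25.6 and 13.0 CPM at P3.5 and 57.4 and 92.2 CPM at P14.5. That rise of 1.78 (SE 0.40, adjusted p = 0.00335, limma) was lost without P3.5 replicate 6 (1.47, adjusted p = 0.0314), P14.5 replicate 3 (2.12, adjusted p = 0.0131) or P14.5 replicate 5 (1.44, adjusted p = 0.0815), and in lactation basal Slc43a2 was not called. Slc43a1 (LAT3), its relative, was mainly basal, with medians of 12.8 CPM in basal and 0.790 CPM in luminal libraries, and its changes of 0.68 (SE 0.47, adjusted p = 0.269, limma) in luminal and -0.88 (SE 0.50, adjusted p = 0.162, limma) in basal cells were not called.

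The Slc1a genes carry acidic amino acids (Slc1a1, Slc1a2 and Slc1a3) or small neutral ones (Slc1a4 and Slc1a5). Slc1a3 (GLAST), a glutamate and aspartate carrier, was called in luminal cells at a low level: it stood at 4.87, 2.47 and 10.9 CPM at L3 and 3.19, 5.15 and 7.51 CPM at L10, against 0 over 0.28 to 1.12 CPM in the non-pregnant libraries, without overlap. The rise was 2.17 (SE 0.34, adjusted p = 3.60e-06, limma). Slc1a3 was higher in basal than in luminal cells over the series, and the summed basal markers in the luminal libraries were 766, 1340 and 476 CPM at L3 and 360, 2488 and 965 CPM at L10, against 88 to 375 CPM at the other time points. The highest Slc1a3 value, 10.9 CPM, was in L3 replicate 6, whose basal marker sum of 476 CPM was the lowest of L3, and the part of basal cells in the values was not tested. Slc1a1 (EAAT3), in contrast, was luminal, and it was called lower in basal cells in lactation, by -1.36 (SE 0.38, adjusted p = 0.00439, limma), with 31.9% of its exon bases shared with 4430402I18Rik. That call was lost without W10 replicate 3 or 5, L3 replicate 5, L10 replicate 6 or Iw4 replicate 3, with adjusted p-values of 0.0103 to 0.133, and with W10 and M4 alone as the non-pregnant group (-1.20, adjusted p = 0.0215).

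Slc1a4 (ASCT1) and Slc1a5 (ASCT2), exchangers of small neutral amino acids and glutamine, were not called in lactation. Slc1a4 changed by 0.51 (SE 0.29, adjusted p = 0.174, limma) in luminal and -0.22 (SE 0.31, adjusted p = 0.596, limma) in basal cells, and Slc1a5 by -0.31 (SE 0.22, adjusted p = 0.279, limma) and 0.58 (SE 0.24, adjusted p = 0.0450, limma). They were split by cell type instead: the 24 luminal libraries held 23.3, 53.0 and 148.0 CPM of Slc1a4 (lowest, median and highest) and the 22 basal ones 3.30, 12.3 and 21.9 CPM, whereas Slc1a5 stood at 2.81, 12.3 and 18.7 CPM in luminal and 23.5, 36.4 and 94.4 CPM in basal libraries. Neither gene overlapped between the cell types in any of the 46 libraries. Of the proton-coupled Slc36a carriers, Slc36a2 (PAT2) was called higher in luminal cells, by 1.57 (SE 0.29, adjusted p = 5.87e-05, limma), at 0.399 to 6.71 CPM in lactation. The lysosomal Slc36a1 (PAT1) was not called in lactation, at 0.58 (SE 0.20, adjusted p = 0.0242, limma) in luminal and 0.72 (SE 0.22, adjusted p = 0.00776, limma) in basal cells. At Id2 luminal Slc36a1 stood at 30.2, 34.6 and 29.7 CPM against 8.16, 17.4 and 13.2 CPM at W10, a rise of 1.28 (SE 0.32, adjusted p = 0.00323, limma) that was lost without W10 replicate 3 (1.01, adjusted p = 0.0379) or Id2 replicate 4 (1.21, adjusted p = 0.0177).

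From P3.5 to P14.5, 1 member (2.13%) was called in luminal cells, where 1.52% of all genes were called. In basal cells 3 members (6.38%) were called, where 3.64% of all genes were. Besides Slc7a5 and Slc43a2 the basal calls held Slc38a5 (SNAT5), which went from 1.98, 3.06 and 4.91 CPM to 0 and 0.494 CPM in basal cells. It fell by 1.76 (SE 0.25, adjusted p = 2.95e-05, limma), and edgeR on the recovered reads gave an adjusted p of 0.110. The change differed between the cell types for Slc7a5 and Slc38a5, where 0.193% of all genes differed. The difference of Slc38a5 held under 8 of 19 alternatives and was lost without any of 9 single libraries, and edgeR gave it an adjusted p of 0.935.

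Between L3 and L10 no member was called by limma in either cell type, where 0.381% of all luminal and 1.14% of all basal genes were. An unadjusted p under 0.05 was found for 12 members in luminal and 6 in basal cells, and edgeR called 0 in both. Between Iw4 and M4, glands of parous and never-pregnant mice, limma again called 0 members in both cell types, beside 0% of all luminal and 0.00586% of all basal genes. The unadjusted counts were 1 and 2, and edgeR called 0 in both. The share of all genes with an unadjusted p under 0.05 was not counted. The unadjusted counts of members therefore have no background here, and the shares given are those of adjusted calls.

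At Id2, when secretion stops and the alveoli begin to be removed, 6 luminal members were called against L10, 4 higher and 2 lower, where 4.56% of all genes were called, 2.15% higher and 2.41% lower. Slc38a6, a little studied SNAT family member, stood at 2.93, 9.57 and 11.5 CPM at L10 and 36.4, 28.1 and 24.4 CPM at Id2, without overlap, a rise of 1.91 (SE 0.36, adjusted p = 5.28e-04, limma), which without L10 replicate 4 was 1.40 with an adjusted p of 0.0129. Slc6a19 (B0AT1), an epithelial carrier of neutral amino acids, was at 0 in all 6 lactating libraries and at 1.38, 1.12 and 7.93 CPM at Id2, on average at least 11.9-fold higher than 3 reads a library, and at least 4.29-fold without Id2 replicate 6. The creatine carrier Slc6a8 went from 53.6, 73.4 and 42.0 CPM to 117, 109 and 128 CPM, a rise of 1.09 (SE 0.27, adjusted p = 0.00658, limma) without overlap. That call was lost without L10 replicate 4 or 6 or any one of the Id2 libraries, with adjusted p-values of 0.0183 to 0.0504. Slc3a1 and Slc6a2 were called lower, by -1.34 and -1.67 on the log2 scale, and held under 9 and 7 of 14 alternatives. Of the exon bases of Slc3a1, 26.5% are shared with Prepl. The summed level of the 9 fibroblast markers, led by Col1a1, was 225, 491 and 5249 CPM in luminal Id2 replicates 2, 4 and 6, against at most 842 CPM in any other luminal library. Without replicate 6 the calls of Slc6a2 and Slc6a8 were lost and the other 4 remained, and the part of fibroblasts in these values was not tested.

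In the basal libraries 5 members were called at Id2 against L10, where 13.3% of all genes were, 5.63% higher and 7.68% lower: Slc38a4 and Slc7a6 higher, Slc38a11, Slc7a10 and Slc6a8 lower. Slc6a8 went the opposite way from luminal cells, from 276 and 317 CPM at L10 to 73.5, 146 and 97.6 CPM, a fall of -1.53 (SE 0.30, adjusted p = 2.62e-04, limma), and the difference between the cell types was -2.62 (SE 0.41, adjusted p = 5.44e-05, limma). The change differed between the cell types for 2 members, Slc6a8 and Slc7a10, both with the lower value in basal cells, where 3.73% of all genes differed, 1.49% with the higher and 2.24% with the lower value there. With replicate 4 as the only basal Id2 library the fall of Slc6a8 was -1.02 with an adjusted p of 0.107, and the difference had an adjusted p of 0.0101. Slc38a11 fell by 2.32 (SE 0.61, adjusted p = 0.00479, limma), but the call held under 6 of 13 alternatives, and with replicate 4 alone its change was -0.01 with an adjusted p of 1. In that fit the group is 1 library. The call of Slc6a8 was also lost without L10 replicate 6 (-1.43, adjusted p = 0.0119, limma) and kept without Id2 replicate 2 or 6, and that of Slc38a11 was also lost without either L10 library. Slc7a10 fell by 1.59 (SE 0.21, adjusted p = 6.20e-07, limma), to 0 in all 3 Id2 libraries from 1.83 and 2.18 CPM, at least 4.85-fold lower on average against 3 reads a library. edgeR lost this call (adjusted p = 0.0102) and that of the difference between the cell types (adjusted p = 1).

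Against W10, the condition that shared its amplification batch, Id2 had 10 luminal members called, 8 higher and 2 lower, where 10.4% of all genes were called, 6.23% higher and 4.14% lower. Besides Slc7a5 these rose in the order Slc43a2 (2.43, SE 0.35, adjusted p = 4.23e-06, limma), Slc38a3 (2.38), Slc38a6 (2.21), Slc3a2 (1.68), Slc6a19 (1.51), Slc7a6 (1.33) and Slc36a1 (1.28), and Slc38a1 (-2.51, SE 0.50, adjusted p = 3.52e-04, limma) and Slc7a1 fell. In basal cells 8 were called, where 17.4% of all genes were, 8.78% higher and 8.58% lower: Slc38a11, Slc6a17 and Slc38a4 higher, and Slc6a15, Slc38a1, Slc6a2, Slc1a2 and Slc6a8 lower. Slc38a4, with 2.32 (SE 0.65, adjusted p = 0.00625, limma), was lost without Id2 replicate 6 (1.31, adjusted p = 0.124), Id2 replicate 4 (2.41, adjusted p = 0.0126), or W10 replicate 5 or 6. It was also lost under edgeR (3.00, adjusted p = 0.0398) and with the pseudocount of 0.1 (2.65, adjusted p = 0.0900, limma). Slc38a1 was the only member called in both cell types, and the share of all genes called in both was not counted. In luminal cells Slc38a3 was lost without W10 replicate 6 (adjusted p of 0.0101) and Slc6a19 without Id2 replicate 6 (0.85 on the log2 scale) or under edgeR (adjusted p = 0.0408). In basal cells edgeR ended the call of Slc6a2 (adjusted p = 0.0121), and Slc1a2 held under 7 of 13 and Slc6a8 under 10 of 14 alternatives. With replicate 4 as the only basal Id2 library, 3 of the 8 basal calls were lost: Slc6a8 at -0.55 (adjusted p = 0.365, limma), Slc38a4 at 2.13 (adjusted p = 0.0579, limma) and Slc1a2 at -1.70 (adjusted p = 0.0492, limma). Basal Slc6a8 stood at 203, 199.98 and 238 CPM at W10 and 73.5, 146 and 97.6 CPM at Id2 (replicates 2, 4 and 6), and Slc1a2 at 8.21, 6.46 and 4.77 CPM and 0.781, 1.26 and 2.91 CPM.

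Over all 8 time points, 21 members varied in luminal cells, where 34% of all genes did, and 15 in basal cells, where 44.5% did. Slc1a1 was among those that did not pass in luminal cells, at 14.7, 47.3 and 94.5 CPM over the 24 libraries (lowest, median and highest), with an adjusted p of 0.852 for variation over time (limma).

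Between the cell types, averaged over the 8 time points, 13 members were higher in basal and 8 in luminal cells, where 21% of all genes were called, 13.6% higher in basal and 7.35% higher in luminal. The taurine carrier Slc6a6 stood at 326, 518 and 1179.5 CPM in basal and 40.5, 95.7 and 211 CPM in luminal libraries (lowest, median and highest), a difference of 2.44 (SE 0.13). Slc36a4 (PAT4) stood at 22.9, 32.0 and 47.8 CPM in basal and 2.16, 10.5 and 20.3 CPM in luminal libraries. Both were higher in basal cells at all 8 time points, and Slc1a1 was higher in luminal cells at all 8, by 3.20 on average (SE 0.20). Together with Slc1a4 and Slc1a5, Slc6a6 and Slc36a4 were the 4 members whose 22 basal and 24 luminal libraries did not overlap at all, where 1.77% of all genes had this property.

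**Figure D5:**
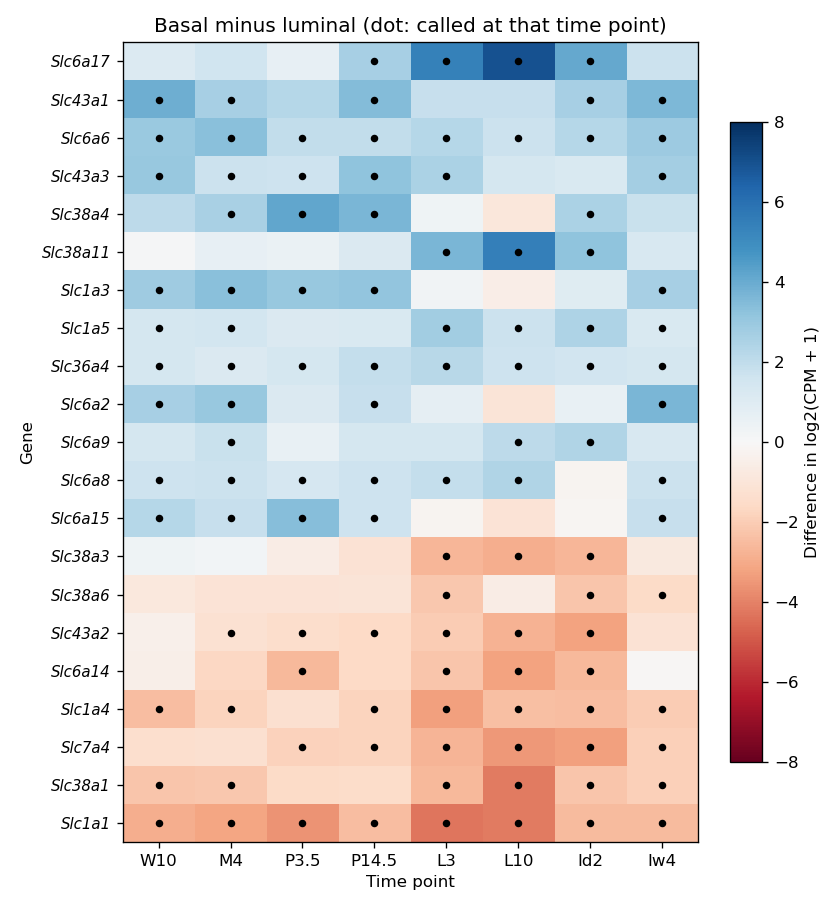
Basal minus luminal log2(CPM + 1) difference for the 21 members called over the mean of the 8 time points (rows) at each time point (columns), with a dot where the difference was called. Slc6a6 and Slc36a4 are basal and Slc1a1 is luminal in every column, while the size of others changes with time.

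The other members with a basal excess were Slc6a17 (3.02), Slc43a1 (2.78), Slc43a3 (2.19), Slc38a4 (2.04), Slc38a11 (2.02), Slc1a3 (1.97), Slc1a5 (1.68), Slc6a2 (1.59), Slc6a9 (1.55), Slc6a8 (1.52) and Slc6a15 (1.19), as log2 differences. Those with a luminal excess besides Slc1a1 were, as basal minus luminal, Slc38a1 (-2.28), Slc7a4 (-2.21), Slc1a4 (-2.20), Slc6a14 (-1.81), Slc43a2 (-1.72), Slc38a6 (-1.32) and Slc38a3 (-1.27). The calls of Slc38a4 and Slc6a15 were lost under edgeR. At single time points between 14 and 20 members were called, 14 at W10, P14.5 and Iw4, 15 at P3.5, 18 at L3, L10 and M4 and 20 at Id2, where all genes gave 14.2% at W10, 12.9% at P14.5, 11.5% at Iw4, 11.9% at P3.5, 25.8% at L3, 24.7% at L10, 12.4% at M4 and 21.6% at Id2. The genes called in opposite directions at different time points were Slc3a2, Slc7a5 and Slc7a6. Slc7a6 was higher in basal cells at W10 and M4 and in luminal cells at L10, and Slc3a2 in basal cells at P3.5 and in luminal cells at Id2. For 15 members no time point was called. How many of all genes were called in opposite directions, or at no time point, was not counted. The counts at single time points fell when 1 library was left out, from 14 to 3 at P14.5 without basal replicate 3, to 8 and 9 without luminal replicates 5 and 3, from 14 at Iw4 to 8 without basal replicate 6 and 9 without luminal replicate 5, and from 18 at M4 to 7 without basal replicate 1, 9 without luminal replicate 6, 10 without basal replicate 2 and 11 without basal replicate 6 or luminal replicate 1.

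Other genes of amino acid handling were followed in lists, whose counts stand beside the 7.45% of all genes called higher and 5.66% called lower in luminal cells in lactation, and 10.4% and 7.78% in basal cells. No test compared the lists with other genes. Of 22 genes of the Gcn2 and Atf4 amino acid response, 4 were higher in luminal cells in lactation (Asns, Atf5, Eif4ebp1 and Psph) and 1 was lower (Stc2), with a list median of 0.45. Asns, asparagine synthetase, went from 32.3 ± 17.5 CPM at W10 to 72.6 ± 21.6 at L3 (SD, n = 3), and Psph, the last enzyme of serine synthesis, from 3.89 ± 2.27 to 49.6 ± 30.9 CPM. Their changes to lactation were 1.02 (SE 0.25, adjusted p = 0.00141, limma) and 2.26 (SE 0.33, adjusted p = 1.44e-06, limma). The secreted hormone Stc2 fell from 539.8 ± 146 CPM at W10 to 22.2 ± 7.58 at L3 (SD, n = 3). In basal cells Atf5 and Ddit3 were higher, Mthfd2 was lower, and the list median was -0.12.

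Of 11 genes of branched-chain and glutamine metabolism, the transaminases Got1 and Gpt2 rose in luminal cells in lactation and none fell. Got1, which makes aspartate, went from 141 ± 97.8 CPM at W10 to 840.2 ± 232 at L3 (SD, n = 3), a change to lactation of 2.48 (SE 0.29, adjusted p = 2.69e-08, limma), and it rose in basal cells too, by 1.28 (SE 0.31, adjusted p = 0.00119, limma). In basal cells the transaminase Bcat1 fell, by -1.76 (SE 0.36, adjusted p = 1.33e-04, limma), and the list median was -0.27. The change was lower in basal than in luminal cells for Gpt2 (-1.98, SE 0.32, adjusted p = 2.05e-05, limma), Bcat1 (-1.90) and the dehydrogenase subunit Bckdha (-1.69). Of all genes, 5.45% differed in that direction. Of 23 genes of mTORC1 and amino acid sensing, 1 was higher and 1 lower in luminal cells (Lamtor2 and Rraga), with a list median of 0.05. Of 20 cytosolic aminoacyl-tRNA synthetases none was higher and 1 was lower (Dars), with a median of 0.25. Of 8 amino acid carriers outside the 7 families, the mitochondrial glutamate carrier Slc25a22 rose in both cell types. For comparison, 6 of 7 milk protein genes rose in luminal cells, with a list median of 4.52, and 5 of 7 rose in basal cells (Csn1s1, Csn1s2a, Csn1s2b, Csn2 and Wap), with a median of 3.19. Over the mean of the 8 time points all 7 were lower in basal than in luminal cells, where 7.35% of all genes were. The list median of that difference was -3.71, and the part of luminal RNA in the basal values was not tested. In basal cells 1 sensing gene was higher (Castor2) and 1 lower (Rraga), 2 synthetases were lower (Dars and Qars), and of the carriers outside the 7 families Slc25a13 and Slc25a15 were lower.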

How the data were processed

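Per the labels and the study's methods, RNA of sorted cells (5 ng a library) was amplified, sequenced and aligned, and the submitters' processing notes name GSNAP, HTSeq and edgeR. Per the study's methods the authors aligned the reads to an NCBI RefSeq mouse build older than GRCm38, and no coordinates of that build are given here. The deposited values are a normalised signal, the read count divided by the edgeR effective library size and scaled by the authors (columns sum to 675541 to 2909036), written CPM here. The steps of the values gave whole reads (within 0.1 of a whole number) for 100% of values, so depth could be recovered (4398806 to 20023054 reads a library), and intervals or floors from it cover counting error only. One basal P14.5 library set aside by the authors was not analysed here.

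The values were fitted as log2(CPM + 1) with limma 3.58.1 in R 4.3.3, with 1 mean for each of 16 conditions, a trended prior and Benjamini-Hochberg adjustment over 17078 genes, without a filter. A gene was called at a fold of 2 or more and a false discovery rate under 0.01. Fold changes on this scale understate the change of low genes. Replicates were separate sorts of pooled mice, of which L3 and L10 replicates 4 and 5 shared sort dates. Luminal and basal libraries with the same time point and replicate number came from the same sort, and in 21 of 22 such pairs the deviations from the group means correlated positively (median 0.25, from -0.00479 to 0.386), so a fit with the sort as a block was an alternative, as were edgeR 4.0.16 on the recovered reads, a pseudocount of 0.1, a filter on a mean of 5 CPM, a false discovery rate of 0.05, median-ratio rescaling, W10 and M4 alone as the non-pregnant group, and leaving out each library. The fits were tested on simulated data, and no outcome of that test is given or used here. Genes named in full were those called in lactation with a mean of at least 5 CPM, the 3 called members with the largest change in each direction of every other comparison, and 14 carriers fixed by name. The members and the lists were chosen with earlier results of these data known. Gene positions, lengths and overlaps came from the GENCODE annotation of GRCm38 and promoters from RefSeq, and counting by strand is not given in the sources used here.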

Additional observations from a re-analysis of the deposited data

Results flagged for a closer look

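For 18 results the change over time differed between basal and luminal cells by the interaction test of limma (fold of 2 or more, false discovery rate under 0.01), and no cause was tested. No test for a single library far from the others was run, since the groups held 2 or 3 libraries.

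In the change to lactation, given as basal minus luminal on the log2 scale, the difference was 4.717 for Slc6a17, 3.889 for Slc38a11 and 1.051 for Slc7a10, all 3 with the higher value in basal cells. It was -3.262 for Slc6a2, -3.111 for Slc7a5, -3.078 for Slc1a3, -2.718 for Slc38a3, -2.664 for Slc6a15 and -2.465 for Slc38a4. It was -2.075 for Slc7a6, -1.593 for Slc7a4, -1.493 for Slc7a7, -1.489 for Slc43a2 and -1.267 for Slc3a2. Without L10 basal replicate 6 the adjusted p of Slc38a4 was 0.0111 and that of Slc3a2 0.0134 (limma), and Slc7a7 held under 21 of 39 alternatives. The value of Slc7a10 was 0.93 without L3 basal replicate 4 and 0.99 without replicate 6, and edgeR gave it an adjusted p of 1.

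In the change from P3.5 to P14.5 the difference was -3.013 for Slc7a5 and -1.731 for Slc38a5, which held under 8 of 19 alternatives. In the change from L10 to Id2 it was -2.621 for Slc6a8 and -1.587 for Slc7a10, and edgeR gave the latter an adjusted p of 1. Of the 3 basal Id2 libraries 2 held few basal markers. For Slc6a8 with replicate 4 as the only basal Id2 library the difference was -2.10, with an adjusted p of 0.0101 (limma).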

How the results depend on the processing

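No called gene changed direction under any alternative that was run. The block for the shared sort lost no call of a named gene, and the counts under this pairing were 12 and 10 in lactation (luminal and basal) and 16 for the difference between the cell types. Gained with the block were the differences of Slc6a14 (-1.98, adjusted p = 0.00991, limma) and Slc6a6 (-1.07, adjusted p = 0.00586, limma). W10 and M4 alone as the non-pregnant group kept 32 calls and ended 4: luminal Slc3a2 and Slc6a9, basal Slc1a1 and the difference of Slc7a7. Median-ratio rescaling ended 2, luminal Slc3a2 in lactation and basal Slc6a8 at Id2 against W10 (-0.97). A false discovery rate of 0.05 gave 3 members for P14.5 against P3.5 in luminal cells, 10 for Id2 against L10 in luminal cells, 1 for L10 against L3 in basal cells, 6 for the difference between the cell types from L10 to Id2, and 26 varying in basal cells. The filter on a mean of 5 CPM gave 3 for Id2 against L10 in luminal cells, and 1 each for the differences from P3.5 to P14.5 and from L10 to Id2. The pseudocount of 0.1 gave 1 for the first of these. edgeR called 16 and 12 members in lactation (luminal and basal), and gave 3 for Id2 against L10 and 5 for Id2 against W10 in basal cells, and 1 for each of the same 2 differences.

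Alternatives added after seeing the data were the fit without the 3 basal Id2 libraries, which gave 1 for L10 against L3 in basal cells, and basal Id2 as replicate 4 alone, a single library assumed to vary like the others. The latter gave 3 for Id2 against L10 and 1 for L10 against L3 in basal cells, and 1 for the difference from L10 to Id2. A block for the sort date, which joined 2 pairs of L3 and L10 sorts, ended none of 94 calls and gave 0 for L10 against L3 in both cell types.

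With 1 library left out, the counts ranged from 10 to 13 and from 8 to 11 in lactation (luminal and basal), and from 11 to 16 for their difference. They ranged from 1 to 2 for P14.5 against P3.5 in luminal cells (2 without P14.5 replicate 2), from 1 to 3 in basal cells and from 0 to 2 for the difference (1 and 0 without P14.5 basal replicate 3, and 1 for the difference without any of 8 other libraries). For Id2 against L10 they ranged from 2 to 5 in luminal cells (2 without L10 replicate 4 or Id2 replicate 2 or 4, and 3 without L10 replicate 6), from 2 to 8 in basal cells (2 without L10 replicate 6, 8 without Id2 replicate 4) and from 2 to 4 for the difference (4 without Id2 basal replicate 4 or L10 basal replicate 5). For Id2 against W10 they ranged from 8 to 10 and from 6 to 9. For L10 against L3 in basal cells they ranged from 0 to 1 (1 without L10 replicate 5 or L3 replicate 4). Between the cell types they ranged from 21 to 22 over the mean of 8 time points, from 11 to 15 at W10, 10 to 12 at P3.5, 3 to 12 at P14.5, 16 to 19 at L3, 13 to 18 at L10, 17 to 21 at Id2, 8 to 13 at Iw4 and 7 to 12 at M4. The members varying ranged from 20 to 23 in luminal and 12 to 17 in basal cells. Over single genes, leaving out 1 library kept the call 1809 times and lost it 117 times, and edgeR kept 79 and lost 15. Median-ratio rescaling moved the median of all genes by at most 0.0708. The scaling of the deposited values differed between the compared groups. Luminal columns summed to 1.37e+06 to 2.91e+06 at L3, 1.03e+06 to 1.51e+06 at L10 and 1.45e+06 to 1.70e+06 at Id2. At W10, M4 and Iw4 they summed to 675541 to 844369. No fit was run on reads scaled by depth alone, so the part of this scaling in the luminal rises was not tested. With 2 basal libraries at P14.5 and at L10, and genes near 3 reads, differences there were measured with little depth or replication.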

Other observations

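The 3 sorts of P3.5 differed in a way that was noticed after the values were seen and belongs to no comparison. The sort of replicate 4 was the highest of the 3 in both cell types for 11 of 47 members (23.4%) and for 8 of 22 genes of the Gcn2 and Atf4 amino acid response (36.4%), against 14.7% of all 17078 genes. For the sort of replicate 2 these shares were 6.38% of members, 13.6% of the response genes and 11.7% of all genes. For that of replicate 6 they were 2.13%, 9.09% and 17.4%. Slc7a11, the xCT light chain, stood at 12.1, 171 and 12.5 CPM in luminal and 21.4, 82.8 and 17.4 CPM in basal cells (replicates 2, 4 and 6). Slc38a2 stood at 467, 905 and 400.1 CPM in luminal and 361, 803 and 368 CPM in basal cells. Chac1, which degrades glutathione, stood at 24.7, 92.7 and 24.3 CPM in luminal and 2.21, 41.6 and 7.29 CPM in basal cells, and Sesn2, a leucine sensor, at 23.7, 91.7 and 37.3 CPM and 8.88, 52.6 and 15.7 CPM. No cause was tested.

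In the change from L10 to Id2, 4 of 20 cytosolic aminoacyl-tRNA synthetases (Eprs, Gars, Nars and Rars) and 3 of 22 genes of the amino acid response (Mthfd2, Pycr1 and Shmt2) differed between the cell types with the higher value in basal cells, where 1.49% of all genes did (limma). The basal Id2 libraries were those of which 2 held few basal markers, and their part in these values was not tested.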
